A study of Mus musculus with 20 samples.

Results

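The genes described here are 5 secreted growth factors of the gut stroma (Fgf1, Fgf2, Fgf7, Fgf10 and Hgf), 4 receptor tyrosine kinases that bind such factors (Fgfr1, Fgfr2, Fgfr3 and Met) and the FGF carrier protein Fgfbp1. They are 10 of 35240 gene symbols in the expression table, and all 10 were present and high enough to be tested. The set was chosen by gene name as stromal factors and their receptors, with their normalised expression in these same 20 libraries already known, so the levels and differences below are a description of the set and not independent evidence about it. The libraries came from colonic organoid (colonoid) cultures of wildtype (WT, C57BL/6) mice and of mice that lack TNFR2 in the whole body (Tnfr2-/-, strain B6.129S2-Tnfrsf1btm1Mwm/J), and TNFR2 is the receptor encoded by Tnfrsf1b. Crypts of the distal colon of mice aged 8 weeks, male and female, were grown in Matrigel with IntestiCult medium, passaged 5 times and seeded through a 70-µm mesh. Cultures were collected on 5 days after passage (1, 2, 3, 5 or 7 DPP, days post-passage), which gave 10 groups of 2 libraries, and the 2 mice of each genotype were read from the replicate numbers as contributing 1 library per day. Days 1, 2 and 3 are called early (6 libraries per genotype) and days 5 and 7 late (4 libraries per genotype).

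Fibroblast growth factors signal across short distances through FGF receptors, with heparan sulfate chains of cell surface proteoglycans as co-receptors. FGF7 and FGF10 are made by mesenchymal cells and act on epithelium through the IIIb form of FGFR2, while FGF1 and FGF2 bind several receptor forms. HGF is another mesenchymal product, cleaved by serine proteases into its active form, and its receptor MET is typical of epithelial cells. Both receptor families feed the RAS and MAPK cascade, whose target genes include its own inhibitors.

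Values are size-factor-normalised TPM, a transcript abundance that accounts for transcript length, summed per gene (normalised expression), so levels may be compared between genes. The 20 libraries summed to between 900655 and 1111080, and the exact read count of each library is not part of these values, although the study's methods give an approximate depth per sample. Tnfrsf1b lay between 11.1 and 21.9 in the WT libraries and between 2.71 and 11.5 in the Tnfr2-/- libraries, lower over all days by 1.35 ± 0.17 on the log2 scale (SE, adjusted p = 9.72e-05). The Tnfr2-/- library of mouse 2 at 7 DPP, at 11.5, was above the WT library of mouse 1 at 3 DPP, at 11.1, and Tnfrsf1b was higher late than early in Tnfr2-/- cultures by 1.02 ± 0.18 (adjusted p = 0.00191). Which part of Tnfrsf1b the mutant allele lacks was not analysed here, and a sum over the gene can include reads from retained exons. All 8 epithelial markers were expressed in every library, with Krt8 between 3463 and 6607. The 12 fibroblast markers were expressed in every library too, with Col3a1 between 410 and 2182, while the leukocyte marker Ptprc reached at most 0.753 and the endothelial marker Cdh5 at most 0.293.

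Ordered by mean over all libraries, Fgfbp1 was the highest of the 10 at 252.3, followed by Fgfr1 at 86.7, Hgf at 53.2, Fgf2 at 42.7, Fgf7 at 38.6, Fgfr2 at 31.5 and Met at 21.6. Fgf1 at 4.07, Fgfr3 at 2.10 and Fgf10 at 1.75 were near the low end of measurable expression. Neighbours in this order overlapped in their range over the libraries, for example Hgf at 13.2 to 115.4, Fgf2 at 4.99 to 133.2 and Fgf7 at 4.90 to 85.9, except that Met, at 16.0 to 27.0, was above every value of Fgf1, which reached 13.

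**Figure D1:**
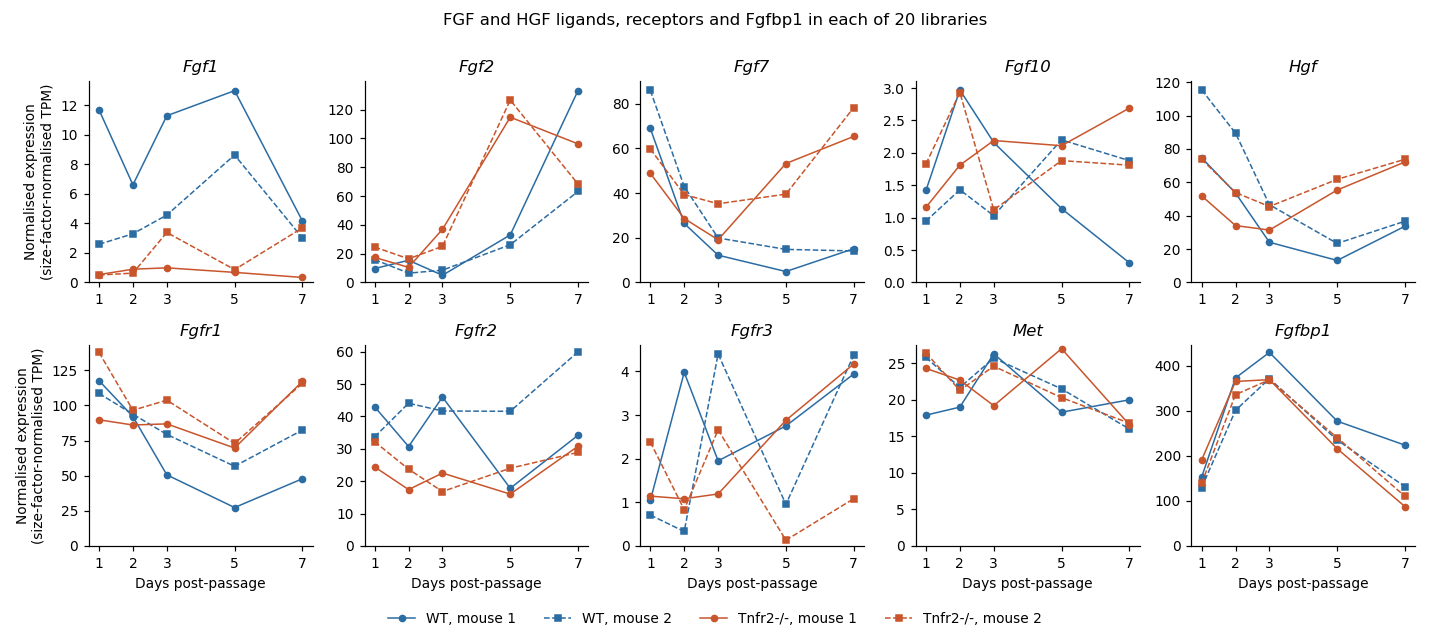
Normalised expression (y axis, size-factor-normalised TPM, from 0) of each of the 10 genes against days post-passage, with 1 line per mouse (blue WT, orange Tnfr2-/-, solid mouse 1, dashed mouse 2). At 5 and 7 DPP the Tnfr2-/- points of Fgf7 (39.5 to 78.2) and Hgf (55.4 to 73.8) lie above all WT points (4.90 to 15.1 and 13.2 to 36.7), and Fgf2 rises late in both genotypes.

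The mesenchymal factors Fgf7 and Hgf fell in WT cultures from the early to the late days, and at the late days both were higher in Tnfr2-/- than in WT cultures. Fgf7 (keratinocyte growth factor; chr2:126034658-126091185, plus strand, GRCm38) was at 68.9 and 85.9 in the WT mice at 1 DPP, 26.4 and 42.9 at 2 DPP, 12.2 and 19.9 at 3 DPP, 4.90 and 14.8 at 5 DPP, and 15.1 and 14.1 at 7 DPP. In the Tnfr2-/- mice it was at 48.8 and 59.7 at 1 DPP, 28.6 and 39.3 at 2 DPP, 19.1 and 35.2 at 3 DPP, 53.2 and 39.5 at 5 DPP, and 65.3 and 78.2 at 7 DPP. Both genotypes thus passed through lower values by 3 DPP, after which the Tnfr2-/- libraries were higher at 5 and 7 DPP, and the late libraries of the genotypes did not overlap. At the late days Fgf7 was higher in Tnfr2-/- than in WT cultures (mean 59.1 ± 16.6 against 12.2 ± 4.9, SD, n = 4 libraries each) by 2.25 ± 0.29 on the log2(value + 1) scale (SE, adjusted p = 7.90e-04), which is 4.75-fold on that scale. At the early days the difference was 0.06 ± 0.24 (adjusted p = 0.949). The late difference exceeded the early one by 2.19 ± 0.38 (adjusted p = 0.0471, or 0.0239 when mouse was a correlated block). This call was lost on mouse means (adjusted p = 0.258), with a pseudocount of 0.1 or 0.5 or no mean-variance trend (adjusted p up to 0.0698), in 17 of 20 fits without 1 library (up to 0.129) and without either Tnfr2-/- mouse (up to 0.94). The fits on mouse means and those without a Tnfr2-/- mouse called 0 of all genes tested for this change, and the difference without 1 mouse was between 1.88 and 2.49. In a bulk culture, more fibroblasts and more Fgf7 RNA per fibroblast cannot be told apart.

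Hgf (chr5:16553495-16620152, plus strand), the MET ligand, followed a similar course. WT values were 74.7 and 115.4 at 1 DPP, 53.6 and 89.5 at 2 DPP, 24.1 and 46.6 at 3 DPP, 13.2 and 23.4 at 5 DPP, and 33.7 and 36.7 at 7 DPP. Tnfr2-/- values were 51.9 and 73.8, 34.1 and 53.9, 31.4 and 45.5, 55.4 and 61.8, and 72.2 and 73.8 on the same days. The late libraries of the genotypes did not overlap, while early ones did. Late Hgf was higher in Tnfr2-/- cultures (65.8 ± 8.75 against 26.8 ± 10.7, SD, n = 4 each) by 1.35 ± 0.26 (adjusted p = 0.00933), or 2.56-fold, and the early difference was -0.36 ± 0.21 (adjusted p = 0.527). The change of the genotype difference from early to late, 1.72 ± 0.34, missed the threshold (adjusted p = 0.0658) and passed it when mouse was a correlated block (adjusted p = 0.0302) but not on mouse means (adjusted p = 0.276).

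Within WT cultures, Fgf7 fell late against early by 1.54 on the log2 scale (SE 0.27, adjusted p = 0.00189) and Hgf by 1.24 (SE 0.24, adjusted p = 0.00339). Most of the fall preceded the late days, since the 3 DPP values of Fgf7 were already 12.2 and 19.9. Within Tnfr2-/- cultures the late-against-early values were 0.65 ± 0.27 for Fgf7 (adjusted p = 0.107) and 0.48 ± 0.24 for Hgf (adjusted p = 0.179), and both passed with the mouse as a fixed block (adjusted p = 0.0396 and 0.0179). The late genotype calls of both genes were lost on mouse means, 2 mice against 2 (adjusted p = 0.187 for Fgf7 and 0.198 for Hgf), and without either Tnfr2-/- mouse (adjusted p up to 0.108 and 0.246). For the late days the fit on mouse means called 0 of 13539 genes and the fits without Tnfr2-/- mouse 1 or 2 called 29 and 20, so these losses are not particular to Fgf7 and Hgf. Their late differences without 1 mouse were between 1.92 and 2.58 and between 1.13 and 1.58. Hgf also lost its late call without the WT library of mouse 1 at 5 DPP (adjusted p = 0.0515), which had the lowest Hgf value of the series.

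In all 3 annotated Fgf7 transcripts the mean was lowest in late WT and highest in late Tnfr2-/- libraries, although for 1 of them early WT libraries came close (10.5 against 11). The 2287-base coding transcript, 60.9% of the gene, averaged 24.5 in early and 7.51 in late WT libraries against 25.2 and 35.5 in Tnfr2-/- libraries. For Hgf, 3 coding transcripts held 31.2%, 28.9% and 28.9% of the gene, and each had a higher late mean in Tnfr2-/- than in WT cultures, for the largest 22.5 against 9.99.

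Fgf10, the other FGFR2-IIIb ligand of the gut mesenchyme, was between 0.304 and 2.97 in all libraries. WT values were 1.42 and 0.947 at 1 DPP, 2.97 and 1.43 at 2 DPP, 2.16 and 1.03 at 3 DPP, 1.14 and 2.20 at 5 DPP, and 0.304 and 1.88 at 7 DPP. On the same days the Tnfr2-/- mice had 1.16 and 1.83, 1.81 and 2.93, 2.19 and 1.12, 2.11 and 1.88, and 2.69 and 1.81. Its genotypes overlapped at early and late days. None of its differences passed the threshold (late difference 0.46 ± 0.32, adjusted p = 0.43).

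Fgf2 (basic FGF; chr3:37348346-37410108, plus strand) rose late in both genotypes. WT values were 9.67 and 15.9 at 1 DPP, 15.4 and 6.47 at 2 DPP, 4.99 and 8.54 at 3 DPP, 33.0 and 26.2 at 5 DPP, and 133.2 and 63.2 at 7 DPP. Tnfr2-/- values were 17.4 and 24.6, 10.5 and 16.4, 36.9 and 25.1, 114.7 and 126.6, and 96.2 and 68.3. In this sum over transcripts, every late library of a genotype was above every early library of that genotype. The rise was 2.35 ± 0.28 on the log2 scale in WT (5.11-fold, adjusted p = 1.88e-04) and 2.23 ± 0.28 in Tnfr2-/- cultures (4.69-fold, adjusted p = 2.08e-04). At 5 DPP the Tnfr2-/- values were already 114.7 and 126.6 against 33.0 and 26.2 in WT, and at 7 DPP the genotypes overlapped.

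Over all days Fgf2 was higher in Tnfr2-/- cultures by 0.98 ± 0.27 (adjusted p = 0.0352, or 0.085 when mouse was a correlated block). This call was lost on mouse means (adjusted p = 0.13), without the filter on low values (adjusted p = 0.0669), without 3 of the 4 mice in turn (adjusted p up to 0.233) and when any of 13 of the 20 libraries was left out (adjusted p up to 0.0738). The early and late differences were 1.03 ± 0.25 (adjusted p = 0.0665) and 0.91 ± 0.30 (adjusted p = 0.0958). The rises within a genotype held without any 1 library, and without 1 mouse that of Tnfr2-/- cultures was between 2.05 and 2.41. The fits without a Tnfr2-/- mouse called 2 genes of the whole table in this comparison, and Fgf2 was not among them (adjusted p up to 0.111).

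The Fgf2 sum joins transcripts of very unequal length. The 5973-base coding transcript held 54.3% of it, with means of 7.26 in early and 28.9 in late WT libraries and of 16.1 and 51.9 in early and late Tnfr2-/- libraries. A retained-intron transcript of only 257 bases held 37%, with means of 2.26 and 29.4 in WT and of 4.84 and 38.9 in Tnfr2-/- libraries, and a length correction gives few reads on so short a transcript a high value. The coding transcript lay between 4.99 and 11 in early and between 8.48 and 63.9 in late WT libraries, so that these overlapped, and between 10.5 and 21.5 and between 48.5 and 54.8 in Tnfr2-/- libraries, which did not. Exons of Fgf2 share 640 bases with exons of Nudt6 on the opposite strand, and whether counting used the strand is not given in the sources used here. Nudt6 had a mean of 7.32, and lay between 2.58 and 7.58 in early and between 4.78 and 28.7 in late WT libraries. In Tnfr2-/- libraries it lay between 2.80 and 13.1 early and between 4.80 and 8.71 late.

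Fgf1 (acidic FGF), which binds all FGF receptor forms, was the gene of the set with the lowest Tnfr2-/- values relative to WT. WT values were 11.7 and 2.59 at 1 DPP, 6.62 and 3.30 at 2 DPP, 11.3 and 4.57 at 3 DPP, 13 and 8.64 at 5 DPP, and 4.17 and 3.02 at 7 DPP. Tnfr2-/- values were 0.535 and 0.505, 0.90 and 0.634, 0.992 and 3.39, 0.684 and 0.872, and 0.341 and 3.70. All but 2 of the Tnfr2-/- libraries were below every WT library, and the exceptions, mouse 2 at 3 and 7 DPP, overlapped the lowest WT values. Over all days Fgf1 was lower in Tnfr2-/- cultures (1.26 ± 1.23 against 6.89 ± 3.98, SD, n = 10 libraries each) by 1.78 ± 0.30 (adjusted p = 0.00166). It was called lower at the early days too (-1.78 ± 0.38, adjusted p = 0.0402) and at the late days (-1.79 ± 0.47, adjusted p = 0.0387), with no call between late and early in either genotype.

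The early call was lost when mouse was a correlated block (adjusted p = 0.058), without the filter on low values and without any of 11 of the 20 libraries, and the late call without that filter (adjusted p = 0.0707) and without any of 10 libraries. The call over all days held without any 1 library (adjusted p up to 0.00479) and was lost on mouse means (adjusted p = 0.308) and without Tnfr2-/- mouse 1 (adjusted p = 0.0908). WT mouse 1, with 4.17 to 13, was above WT mouse 2, with 2.59 to 8.64, on each day. The 3981-base coding transcript, 28.2% of the gene, lay between 0.513 and 3.28 in WT and between 0.196 and 0.878 in Tnfr2-/- libraries. Transcripts of only 346 and 342 bases held 32.9% and 17% of the gene and reached 6.66 and 9.57 in WT libraries. In Tnfr2-/- libraries the 346-base transcript reached 3 late and the 342-base transcript 2.03 early. As for Fgf2, few reads on so short a transcript give a high value.

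**Figure D2:**
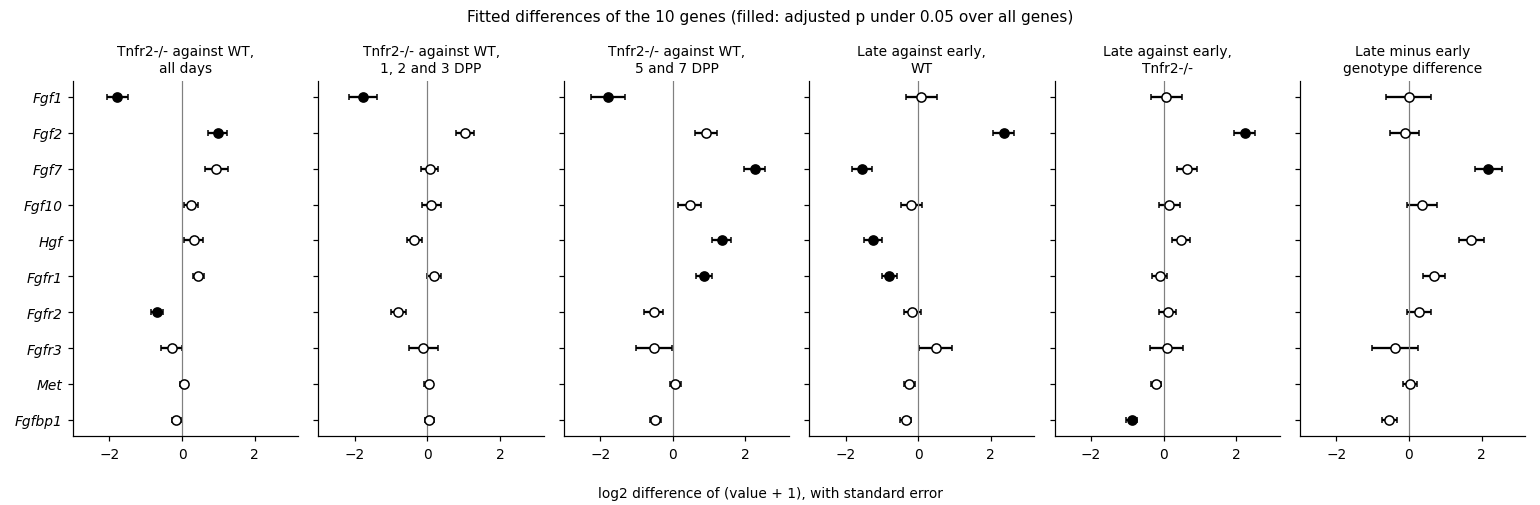
Fitted log2 differences of value + 1 (x axis) with standard errors for the 10 genes (y axis) in 6 comparisons. Filled points have an adjusted p under 0.05 over all 13539 genes tested. Fgf7 and Hgf are near 0 between genotypes at the early days (0.06 and -0.36) and above 0 at the late days (2.25 and 1.35), while Fgf1 is at -1.78 and -1.79.

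Among the receptors, Fgfr1 differed in the same direction as Fgf7 and Hgf between genotypes late, and late against early in WT. Late against early in Tnfr2-/- cultures it was at -0.11 ± 0.21 (adjusted p = 0.751, limma), beside 0.65 for Fgf7 and 0.48 for Hgf. Fgfr1 (chr8:25513654-25575718, plus strand), the FGF receptor most typical of mesenchymal cells, was at 117.7 and 108.6 in the WT mice at 1 DPP, 92.1 and 93.8 at 2 DPP, 50.6 and 79.4 at 3 DPP, 27.3 and 56.7 at 5 DPP, and 47.8 and 82.5 at 7 DPP. On the same days the Tnfr2-/- mice had 89.8 and 137.8, 86.1 and 96.6, 86.9 and 103.8, 69.7 and 73.0, and 117.2 and 115.8. WT mouse 1 was the lower WT mouse from 2 to 7 DPP, and WT mouse 2 overlapped the late Tnfr2-/- libraries.

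Late Fgfr1 was higher in Tnfr2-/- cultures by 0.86 ± 0.23 (adjusted p = 0.0409), and in WT it fell late against early by 0.80 on the log2 scale (SE 0.21, adjusted p = 0.0167). Without 1 mouse the late genotype difference was between 0.41 and 1.31. The late genotype call was lost without any of 14 of the 20 libraries (adjusted p up to 0.167), on mouse means (adjusted p = 0.373), without the filter on low values, without the mean-variance trend and after rescaling to the same sum (adjusted p up to 0.0701). The WT fall was lost without the 5 or the 7 DPP library of WT mouse 1 (adjusted p up to 0.0952) and without WT mouse 1 or either Tnfr2-/- mouse (adjusted p up to 0.186).

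Fgfr2 (chr7:130162451-133123350, minus strand) was lower in Tnfr2-/- cultures. WT values were 43.0 and 33.7 at 1 DPP, 30.7 and 44.1 at 2 DPP, 46.0 and 41.7 at 3 DPP, 17.8 and 41.6 at 5 DPP, and 34.2 and 60.0 at 7 DPP. Tnfr2-/- values were 24.4 and 32.2, 17.4 and 23.7, 22.5 and 16.8, 16.0 and 24.0, and 30.8 and 28.9. The WT library of mouse 1 at 5 DPP was the only WT library below 30, and the genotypes overlapped through it and through that mouse at 2 DPP. Over all days the difference was -0.69 ± 0.16 (39.3 ± 11.1 in WT against 23.6 ± 5.78 in Tnfr2-/- libraries, SD, n = 10 each, adjusted p = 0.0135). It held without any 1 library (adjusted p up to 0.0299) and was lost on mouse means (adjusted p = 0.336) and without WT mouse 2 or either Tnfr2-/- mouse (adjusted p up to 0.203). The early and late differences of -0.80 ± 0.21 (adjusted p = 0.101) and -0.52 ± 0.26 (adjusted p = 0.248) did not pass. The late difference was between -0.82 and -0.23 without 1 library, and between -1.02 and -0.03 without 1 mouse.

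Fgfr2 is spliced into IIIb and IIIc forms by a choice between a pair of exons that encode the last part of the third immunoglobulin domain. The IIIb form, typical of epithelium, binds FGF7 and FGF10, and the IIIc form, typical of mesenchyme, binds other FGFs. The pair was found in the GENCODE M21 transcripts as coding exons that stand between the same flanking exons, and the first in the direction of transcription was taken as IIIb.

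Of the 27 Fgfr2 transcripts, 11 held the IIIb exon, 5 held the IIIc exon and 11 held neither. In every library the IIIc transcripts exceeded the IIIb transcripts, at between 10.2 and 25.3 in the WT and between 5.26 and 17.2 in the Tnfr2-/- libraries. IIIb transcripts were at 1.85 and 0.661 in the WT mice at 1 DPP, 0 and 0 at 2 DPP, 1.68 and 0 at 3 DPP, 6.96 and 2.44 at 5 DPP, and 7.80 and 5.49 at 7 DPP. Every late WT library was thus above every early WT library. In the Tnfr2-/- mice they were at 0 and 0, 0.761 and 0, 0 and 2.54, 3.75 and 0, and 0 and 2.70, so that late and early libraries overlapped. IIIb transcripts made up between 5.86% and 39.1% of Fgfr2 in late WT libraries. These are levels of a few units, no test was made on them, and an exact 0 can be a failed assignment of reads, since 75-base reads outside the exon fit several transcripts.

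**Figure D3:**
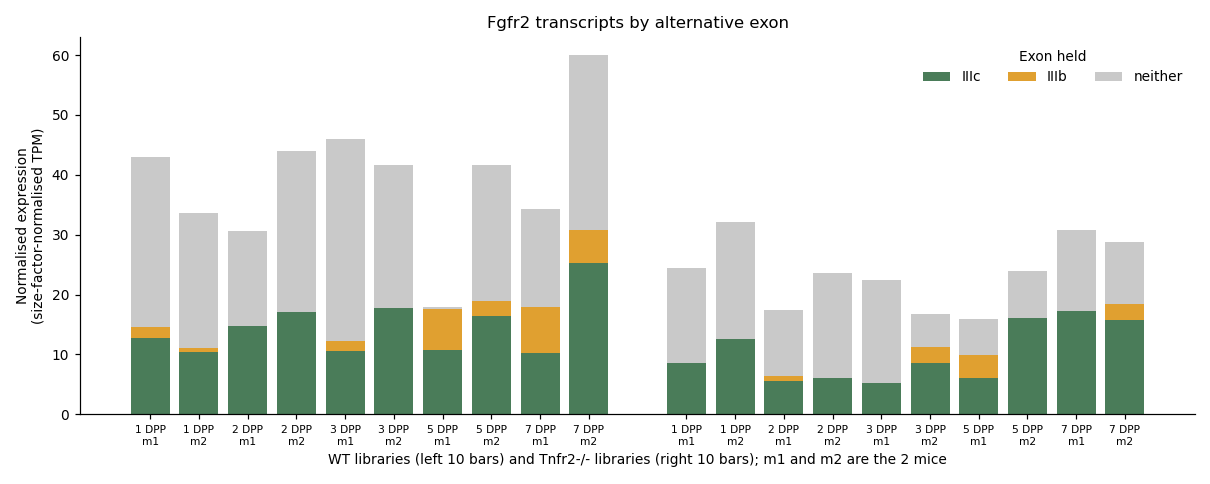
Fgfr2 normalised expression (y axis, size-factor-normalised TPM) in each of 20 libraries (x axis, by genotype, day and mouse), stacked by the alternative exon the transcripts hold. IIIb (yellow) is present in all 4 late WT libraries, at 2.44 to 7.80, and in 2 of the 4 late Tnfr2-/- libraries, at 2.70 and 3.75.

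Transcripts with the IIIc exon averaged 13.9 ± 3.15 in early WT and 7.78 ± 2.75 in early Tnfr2-/- libraries (SD, n = 6 each), and 15.7 ± 7.04 and 13.8 ± 5.18 in late ones (n = 4 each). Transcripts with neither exon, which include retained introns of 790 and 335 bases, averaged 25.2 in early WT and 14.5 in early Tnfr2-/- libraries. The annotated Fgfr2 gene shares 314 exon bases with Ctbp2 on the same strand, and Ctbp2 had a mean of 69.6. In Fgfr1, 4 transcripts with the IIIc exon averaged 37.0 in early and 19.2 in late WT libraries against 37.8 and 38.0 in Tnfr2-/- libraries, and 3 transcripts with the IIIb exon averaged 12.7, 10.1, 14 and 17.6 in the same order.

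Fgfr3, another FGF receptor of epithelium, lay between 0.13 and 4.4. WT values were 1.04 and 0.707 at 1 DPP, 3.98 and 0.329 at 2 DPP, 1.95 and 4.4 at 3 DPP, 2.75 and 0.952 at 5 DPP, and 3.94 and 4.37 at 7 DPP. On the same days the Tnfr2-/- mice had 1.14 and 2.38, 1.08 and 0.831, 1.19 and 2.66, 2.88 and 0.13, and 4.17 and 1.08. The groups overlapped, and no difference passed the threshold (late genotype difference -0.51 ± 0.50, adjusted p = 0.588). Met (chr6:17463800-17573980, plus strand), the HGF receptor, had the narrowest range of the 10 genes relative to its level. WT values were 17.9 and 25.8 at 1 DPP, 19 and 21.7 at 2 DPP, 26.3 and 25.7 at 3 DPP, 18.3 and 21.5 at 5 DPP, and 20 and 16 at 7 DPP. Tnfr2-/- values were 24.3 and 26.4, 22.7 and 21.3, 19.2 and 24.6, 27 and 20.3, and 16.6 and 16.8. The genotypes overlapped at early and late days. Its genotype difference over all days was 0.04 ± 0.09 (adjusted p = 0.824), and none of the 6 comparisons passed.

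Fgfbp1 (chr5:43978858-43981779, minus strand), a secreted protein that releases FGFs from the matrix, rose to a peak at 3 DPP in each mouse and then fell. WT values were 152.6 and 129.2 at 1 DPP, 373.1 and 301.1 at 2 DPP, 429.8 and 371.5 at 3 DPP, 277.0 and 235.0 at 5 DPP, and 223.7 and 131.6 at 7 DPP. On the same days the Tnfr2-/- mice had 190.7 and 138.8, 365.2 and 336.1, 369.3 and 368.9, 215.8 and 240.3, and 87.2 and 110.1. At 3 and 7 DPP both Tnfr2-/- libraries were below both WT libraries, narrowly at 3 DPP, and on the other days the genotypes overlapped. Late against early, Fgfbp1 fell in Tnfr2-/- cultures by 0.88 on the log2 scale (SE 0.15, adjusted p = 0.00129). In WT the value was -0.34 ± 0.15 (adjusted p = 0.118, and 0.0484 with the mouse as a fixed block). The late genotype difference was -0.48 ± 0.16 (adjusted p = 0.0967, and past the threshold after rescaling to the same sum), and its change from early to late days was -0.54 ± 0.21 (adjusted p = 0.329). The fall in Tnfr2-/- cultures held without any 1 library, and without 1 mouse the value was between -1.10 and -0.66. The fits without a Tnfr2-/- mouse, which called 2 genes of the whole table, did not call it (adjusted p up to 0.233).

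Across the set, 3 of the 10 genes were called between genotypes over all days, beside 7.60% of all genes tested. At the early days 1 of 10 was called, beside 1.20%, and at the late days 4 of 10, beside 6.45%. Late against early, 4 of 10 were called in WT, beside 20.1%, and 2 of 10 in Tnfr2-/- cultures, beside 20.3%. The change of the genotype difference from early to late was called for 1 of 10, beside 0.148%. Because the set was chosen with these libraries known, nothing is read from these shares. Fgf10, Fgfr3 and Met were called in none of the 6 comparisons.

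Some fibroblast markers differed between the genotypes. Over all days 3 of 12 were called higher in Tnfr2-/- cultures, beside 7.60% of all genes called, and at the early days, when Fgf7 and Hgf were not called, 1 of 12 was, beside 1.20%. This was Dcn (0.93, adjusted p = 0.0242), which was also called for the change of the genotype difference from early to late (1.81, adjusted p = 0.0403), beside 0.148% of all genes. The call for the change was lost in 17 of 24 fits that left out a library or a mouse and on mouse means (adjusted p = 0.258). The sum of 12 fibroblast markers was between 2396 and 5294 in early and between 1503 and 5899 in late WT libraries, and between 3696 and 5356 and between 4772 and 10869 in Tnfr2-/- libraries. At the late days 2 of the 12, Dcn and Vim, were called higher in Tnfr2-/- cultures and none lower, beside 6.45% of all genes called, with a median log2 difference of 0.97 over the list and -0.05 over all genes tested. Dcn (decorin, a matrix proteoglycan) was at 308.6 ± 125.4 in late WT and 1945 ± 502.8 in late Tnfr2-/- libraries (SD, n = 4 each). Pdgfra, a defining fibroblast marker, overlapped between the genotypes at the late days (20.6 to 64.4 in WT and 32.4 to 83.2 in Tnfr2-/- libraries). The late WT library of mouse 1 at 5 DPP had the lowest sum of fibroblast markers, 1503, and also the lowest Fgf7, Hgf and Fgfr1 of the series. Without it the late genotype difference of Fgf7 stayed called and those of Hgf, Fgf1 and Fgfr1 did not. Far fewer of all genes were called late in that fit, so these losses are not particular to Hgf, Fgf1 and Fgfr1.

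Late against early, 4 of the 12 fibroblast markers were called higher in Tnfr2-/- cultures (Postn, Col1a1, Col1a2 and Dcn), beside 20.3% of all genes called, with a median of 0.88 over the list. In WT, where Fgf7 and Hgf fell, Thy1 was called higher (adjusted p = 0.049, lost in 16 of 24 fits that left out a library or a mouse) and Dcn lower (adjusted p = 0.00775), beside 20.1% of all genes, with a median of 0.00. From 1 to 7 DPP the fibroblast sum of WT mouse 2 went from 5036 to 5899, while its Fgf7 went from 85.9 to 14.1 and its Hgf from 115.4 to 36.7. In WT mouse 1 the sum went from 4754 to 2386. On the log2 scale the sum of fibroblast markers had a Pearson r of 0.75 with Fgf7, 0.712 with Hgf and 0.782 with Fgfr1 over the 20 libraries, against 0.255 with Fgf2, -0.495 with Fgf1 and 0.125 with Fgfr2. Fgfbp1 had an r of 0.715 with the sum of 8 epithelial markers. Late against early in Tnfr2-/- cultures, where Fgfbp1 fell, 2 of these 8 were called lower, Krt8 (-0.43, adjusted p = 0.0135) and Krt19 (-0.31, adjusted p = 0.0299), and 2 higher, Epcam (1.57, adjusted p = 4.23e-05) and Cdh1 (0.50, adjusted p = 8.66e-04). In WT 3 were called higher, Epcam (1.33), Vil1 (1.09) and Cdh1 (0.51), and none lower. These are descriptions over libraries that share mice, days and scaling. The part of fibroblast content in the Fgf7, Hgf and Fgfr1 differences, and of epithelial content in the Fgfbp1 fall, was not tested.

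**Figure D4:**
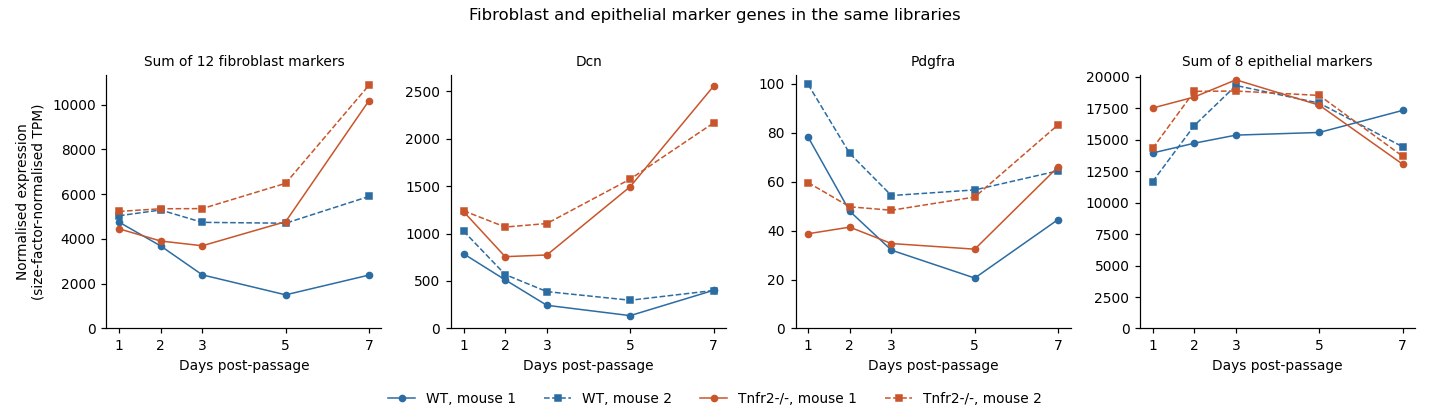
Normalised expression (y axes, size-factor-normalised TPM, from 0) of the summed 12 fibroblast markers, Dcn, Pdgfra and the summed 8 epithelial markers against days post-passage, with 1 line per mouse. The late Tnfr2-/- libraries reach 10869 for the fibroblast sum and 2551 for Dcn, while the late WT libraries stay at or below 5899 and 401.8.

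Markers of other cells stood lower. The macrophage-associated gene Cd68 was higher in Tnfr2-/- cultures over all days (24.7 ± 9.19 against 10.5 ± 3.12, SD, n = 10 each, adjusted p = 4.49e-04), and Csf1r too (adjusted p = 0.0285, or 0.0671 when mouse was a correlated block), while Adgre1 was at 0 in 19 of 20 libraries and Cd3e in 16. The sum of 7 immune markers was between 8.53 and 21 in WT and between 17.3 and 48.4 in Tnfr2-/- libraries. The 4 smooth muscle markers summed to between 0.287 and 20.1, the 4 endothelial markers to between 0.288 and 4.24, and the 4 glia and neuron markers to between 0.106 and 2.57, over all libraries. Among epithelial markers, Epcam (adjusted p = 0.0335, and 0.0703 with the correlated block) and Cdh1 (adjusted p = 0.0221, and 0.0553) were called higher in Tnfr2-/- cultures over all days and no epithelial marker at the late days. On mouse means, 2 against 2, none of the named genotype calls of any marker list passed (adjusted p from 0.119 for Cd68 and Dcn over all days to 0.456 for Thy1), and late Dcn and Vim were at 0.127 and 0.262. The part of these cells in the differences of the 10 genes was not tested.

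Fgf7 and Hgf moved closely together, with a Pearson r of 0.925 between their log2 values over the 20 libraries, and Fgfr1 had an r of 0.848 with Fgf7 and 0.831 with Hgf. Outside the set, the genes most like Fgf7 were Tpm4 (r = 0.945), Ldhb (0.938) and Dchs1 (0.936), and those most like Hgf were Gja1 (0.947), Foxf1 (0.941) and Loxl2 (0.926). Those most like Fgfr1 were Twist1 (0.933), Dpy19l1 (0.922) and Creld1 (0.899). Fgfbp1 was most like Rab25 (0.956), Gjb2 (0.946) and Slc7a1 (0.931), of which Rab25 is an epithelial trafficking GTPase. For Fgf2 they were C1galt1 (0.931), Camk2n1 (0.922) and Bnip3 (0.921), and for Fgf1 Oxct1 (0.851), Rpl34 (0.83) and Aste1 (0.825). For Fgfr2, Fgf10, Fgfr3 and Met the highest r was 0.795 (Fat4), 0.728 (Cyp7b1), 0.786 (Tmem177) and 0.742 (Zfp568).

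The promoters of Fgf7 and Hgf are shown because these genes moved together, and that of Fgfbp1 because it had a peak at 3 DPP. Each is the 300-base RefSeq window on GRCm38.p6, around the annotated start, 5′ to 3′ on the strand of the gene. They lie at chr2:126034408-126034707 (plus), chr5:16553245-16553544 (plus) and chr5:43981750-43982049 (minus). Capitals mark matches to the TBP motif TATAAA, the AP-1 motif TGANTCA, the E-box motif CACGTG and the TEAD motif CATTCC, searched on both strands, and no match overlapped another.
Fgf7 promoter: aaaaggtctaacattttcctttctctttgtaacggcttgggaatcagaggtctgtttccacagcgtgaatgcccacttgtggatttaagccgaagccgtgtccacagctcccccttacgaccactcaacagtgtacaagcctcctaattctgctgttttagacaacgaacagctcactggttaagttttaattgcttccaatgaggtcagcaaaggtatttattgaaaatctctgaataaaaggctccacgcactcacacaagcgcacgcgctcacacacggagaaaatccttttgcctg
Hgf promoter: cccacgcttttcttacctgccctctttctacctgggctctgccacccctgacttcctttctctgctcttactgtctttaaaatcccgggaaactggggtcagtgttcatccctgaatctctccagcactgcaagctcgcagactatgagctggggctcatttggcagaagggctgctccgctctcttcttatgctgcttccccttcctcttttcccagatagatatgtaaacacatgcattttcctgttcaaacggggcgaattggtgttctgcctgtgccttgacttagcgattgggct
Fgfbp1 promoter: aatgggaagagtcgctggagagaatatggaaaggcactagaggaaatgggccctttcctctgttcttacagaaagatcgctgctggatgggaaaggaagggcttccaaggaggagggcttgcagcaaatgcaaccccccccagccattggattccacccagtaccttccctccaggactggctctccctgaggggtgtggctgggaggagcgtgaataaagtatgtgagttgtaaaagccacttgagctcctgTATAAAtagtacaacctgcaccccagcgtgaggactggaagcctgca

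Of all 32851 promoter windows, 13.6% held TATAAA, 7.81% TGANTCA, 7.15% CACGTG and 14.7% CATTCC. The Fgf7 window and both annotated Hgf windows, of which the upstream is shown, held none of the 4 motifs, and the Fgfbp1 window held 1 TATAAA. The Met window held 1 TGANTCA and 1 CACGTG, and that of Fgfr2 held 1 CACGTG. The windows of Fgf2, Fgfr3 and Fgf10 held none of the motifs, and windows of Fgf1 and Fgfr1 are not reported here.

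The other members of the pathways were read from fixed lists, and their counts stand beside the shares of all genes called that are given above, 7.60% over all days, 1.20% early, 6.45% late, 20.1% in WT and 20.3% in Tnfr2-/- cultures. Of 18 other FGF ligands, 2 had a mean of at least 1, Fgf11 and Fgf13, and 6 were listed at 0 in every library. Fgf13, a homologue that acts inside the cell, fell late against early by 1.03 on the log2 scale in WT (11 ± 2.13 to 5.12 ± 2.54, SD, adjusted p = 0.00487) and by 0.84 in Tnfr2-/- cultures (adjusted p = 0.0137). Neither ligand was called between genotypes.

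Of the other receptors, co-receptors and binding proteins, 11 of 14 were tested, and 3 of the 11 were called higher in Tnfr2-/- cultures at the late days and none lower, beside 6.45% of all genes called, with a median of 0.56 over the list and -0.05 over all genes. All 3 were syndecans, and the other syndecan of the list, Sdc2, was tested and not called. Syndecans are heparan sulfate carriers that serve as FGF co-receptors. The values were those of Sdc3 (14.7 ± 6.78 against 4.21 ± 1.84, log2 difference 1.56, adjusted p = 0.0119), Sdc1 (830.6 ± 45.9 against 530.6 ± 105.9, 0.67, adjusted p = 0.0249) and Sdc4 (246.7 ± 13.9 against 167.1 ± 28.3, 0.57, adjusted p = 0.00139; SD, n = 4 each). The same genes were called higher over all days. Sdc4 was also called at the early days (0.33, adjusted p = 0.0271, or 0.0565 when mouse was a correlated block). Late against early, Sdc4, Fgfrl1, a receptor without a kinase domain, and the glypican Gpc4 were called higher in both genotypes, Sdc4 by 0.50 in WT (adjusted p = 7.55e-04) and by 0.74 in Tnfr2-/- cultures (adjusted p = 7.31e-05). Sdc1 was called higher in Tnfr2-/- cultures (0.57, adjusted p = 0.0133).

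Of the genes of HGF activation and the related MSP pair, 9 of 11 were tested, and the genotype calls were single genes. Plau (urokinase, a protease that can activate HGF) was higher in late Tnfr2-/- cultures (148.5 ± 21.8 against 72.0 ± 29.6, SD, n = 4 each, log2 difference 1.14, adjusted p = 0.0409), a call lost in 15 of 24 fits that left out a library or a mouse. The membrane protease Tmprss2 was higher in early ones (0.38, adjusted p = 0.0402, and 0.0588 with the correlated block). Late against early, 4 were called higher in WT: the MSP receptor Mst1r (1.10, adjusted p = 0.00308), the HGF activator Hgfac (0.83, adjusted p = 0.00464), Tmprss2 (0.75, adjusted p = 2.26e-04) and the protease inhibitor Spint2 (0.74, adjusted p = 0.0117). In Tnfr2-/- cultures 2 were, Tmprss2 (0.40, adjusted p = 0.00841) and the protease St14 (matriptase; 0.40, adjusted p = 0.0104).

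Of the 20 signal transmission genes, all were tested and Map2k1 (MEK1, a MAPK kinase) was the only genotype call, higher in Tnfr2-/- cultures over all days (131.1 ± 22.1 against 97.5 ± 16.7, SD, n = 10 each, log2 difference 0.42, adjusted p = 0.00161) and late (0.47, adjusted p = 0.032). Hras, a RAS GTPase, was lower late than early in both genotypes (-0.74 in WT, adjusted p = 0.00189, and -0.77 in Tnfr2-/- cultures, adjusted p = 0.00128), and Plcg1, a phospholipase bound by FGF receptors, was higher in both (0.66 and 0.64, adjusted p = 0.00736 and 0.00801). The MET docking protein Gab1 (0.86, adjusted p = 0.00369) and the ubiquitin ligase Cbl (0.62, adjusted p = 0.0194) were higher late in WT. Gab2 (0.87, adjusted p = 0.0179) and Map2k1 (0.35, adjusted p = 0.0372) were higher late in Tnfr2-/- cultures.

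Of the feedback inhibitors and target genes, 19 of 22 were tested, and 5 of the 19 were called higher in late Tnfr2-/- cultures and none lower, beside 6.45% of all genes called, with a median of 0.13 over the list and -0.05 over all genes. The 4 largest were the ETS factor Etv1 (11.9 ± 1.91 against 3.92 ± 1.85, log2 difference 1.48, adjusted p = 0.0143), Flrt2, an FGF receptor partner (1.45, adjusted p = 0.00174), and the MAPK phosphatases Dusp4 (149.1 ± 22.4 against 66.4 ± 37.0, 1.33, adjusted p = 0.00203) and Dusp5 (0.83, adjusted p = 0.0401). Over all days 3 were higher, Dusp4 (1.00, adjusted p = 8.21e-04), Flrt2 (0.80, adjusted p = 0.0127) and Etv1 (0.79, adjusted p = 0.0486, and 0.107 with the correlated block), and the inhibitor Spry1 was lower (-0.44, adjusted p = 0.012). Dusp4 was called at the early days (0.78, adjusted p = 0.0334, and 0.0692 with the correlated block).

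Late against early, 1 of the 19 was called higher and 5 lower in WT, beside 20.1% of all genes called in either direction, and 3 higher and 3 lower in Tnfr2-/- cultures, beside 20.3%. Dusp4 was higher in both (1.01 in WT, adjusted p = 0.00217, and 1.56 in Tnfr2-/- cultures, adjusted p = 1.43e-04), and Dusp5 lower in both (-1.35, adjusted p = 7.46e-04, and -0.62, adjusted p = 0.0421). Etv1 (-0.96, adjusted p = 0.0286) and the inhibitor Spry4 (-0.63, adjusted p = 0.0153) were lower late in WT. In Tnfr2-/- cultures Ccnd1, which encodes cyclin D1, was lower (-1.12, adjusted p = 2.24e-04) and the immediate early factor Egr1 higher (0.62, adjusted p = 0.00594). In the limma fits none of the genes of these 5 lists was called for a change of the genotype difference from early to late. At an unadjusted p under 0.05 there were 3 of 11 tested among receptors and co-receptors and 5 of 9 in the HGF activation list. There were 7 of 19 among inhibitors and targets, and 0 of 2 and 0 of 20 in the other lists. Over all genes tested there were 1583 of 13539. Because the lists were chosen with these data known, nothing is read from these counts. On mouse means none of the genotype calls named from these lists passed. Of 24 fits that left out a library or a mouse, the call was lost in 19 for Etv1 over all days, 17 for Dusp4 early, 18 for Tmprss2 early, 12 for Sdc4 early and 16 for Dusp5 late.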

How the data were processed

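Stranded mRNA of 20 mouse colonoid libraries was sequenced as single-end reads of 75 bases. According to the submitters' processing notes, CASAVA, kallisto, sleuth and mm10 were used. The deposited values are a signal, TPM per transcript divided by the authors by a size factor per library, with no read counts, so the exact depth of each library is unknown (the study's methods give only an approximate one) and precision rests on the replicates. The authors' own test columns (p-values, q-values, effect and variance terms) were not used.

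Of 113974 lines, 781 identical repeats were dropped, and 113193 transcripts were summed per gene symbol (199 without a symbol, at most 0.0989% of a library, were left out). For 13539 genes with a mean of at least 1, log2(value + 1) was fitted with limma 3.58.1 (R 4.3.3, mean-variance trend), with day plus genotype, or with 10 group means and contrasts, Benjamini-Hochberg over all genes tested, and calls at an adjusted p under 0.05. A pseudocount of 1 understates changes of low genes. Members of each other list were named by a rule, up to 4 called genes per comparison with the largest difference. The members and lists were chosen with earlier results of these data known. For each member, the 3 other genes with the highest Pearson r were named. The limma step was tested on simulated data. The simulation had independent noise per library and no mouse effect, so it says nothing about p-values from repeated libraries of a mouse.

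Libraries with the same number and genotype were read as the same mouse, from the labels. Differences between the mice correlated between days at 0.0997 to 0.307 in WT and at -0.0511 to 0.08 in Tnfr2-/- cultures. The 5 libraries of a mouse are repeated samples, so treating them as independent can make genotype p-values too small. The mouse was therefore also fitted as a block, and on mouse means. Transcripts were matched to GENCODE M21 by identifier and version (99 of the 100 of the 10 genes), and sorted into IIIb and IIIc forms by an overlap of at least 90 bases with the exon. The sequences of these exons are not reported here. Other alternatives were the pseudocount, the filter, the scaling, the trend, summing per Ensembl gene, and leaving out each library or mouse.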

Additional observations from a re-analysis of the deposited data

Results flagged for a closer look

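The change of the Fgf7 genotype difference from early to late days passed the test of that difference itself, at 2.19 on the log2 scale (adjusted p = 0.0471, limma), and Fgf7 was higher in all 4 late Tnfr2-/- libraries than in any late WT library. The call was lost in 17 of 20 fits without 1 library.

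Single libraries stood apart from the others of their genotype and phase in 4 of 40 groups tested. Chance gives about 1 in 20 for like samples with normal values. These groups pool days and mice, so that rate need not hold here. For Fgf1 in Tnfr2-/- cultures these were mouse 2 at 3 DPP (3.39) among the 6 early libraries and mouse 2 at 7 DPP (3.70) among the 4 late ones. These Fgf1 sums include the short transcripts named above. For Fgf7 it was the WT library of mouse 1 at 5 DPP (4.90), and for Fgfr1 the Tnfr2-/- library of mouse 2 at 1 DPP (137.8).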

How the results depend on the processing

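In the fits with a block for the mouse, the number of the 10 genes called changed as follows. On mouse means, 2 against 2, it was 0 over all days, 0 at the early days, 0 at the late days and 0 for the change between them (4, 3, 4 and 2 at an unadjusted p under 0.05, limma). These fits called 7, 3, 0 and 0 of all 13539 genes, so the counts of 0 say nothing about the 10 genes in particular. At an unadjusted p under 0.05 they held 1522, 1113, 1859 and 1528 of all genes. With the mouse as a correlated block it was 0 at the early days and 2 for the change from early to late, and with a fixed block 4 for late against early in Tnfr2-/- cultures. Over all 13539 genes these fits called 110, 47 and 3343, against 162, 20 and 2755 in the main fits. Without the filter on low values it was 0 early and 2 late, in fits that called 180 and 788 of 22550 genes. For the change from early to late it was 0 with a pseudocount of 0.1, 0 with 0.5 and 0 without the trend (4 at an unadjusted p under 0.05 each). Those fits called 10, 7 and 18 of all 13539 genes, and held 1547, 1568 and 1556 at an unadjusted p under 0.05 (limma). Nothing is read from these counts about the 10 genes. Leaving out 1 library or mouse gave 0 to 4 genes over all days, 0 to 3 early, 0 to 5 late, 3 to 4 in WT, 0 to 3 in Tnfr2-/- cultures and 0 to 2 for the change. Without Tnfr2-/- mouse 1 or 2 the fits called 29 and 20 of all genes late, 2 and 2 late against early in Tnfr2-/- cultures and 0 and 0 for the change. With a mouse left out, the lone library of a group was assumed to vary like the others.

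Of 305 gene-level results under the other settings, 279 kept their direction and side of the threshold, 20 lost a call and 6 gained one. Of 840 with a library or mouse left out, 714 kept both, 97 lost a call, 24 gained one and 5 changed sign, none of them called: Hgf early (-0.74 to 0.02), Fgfr3 late (-1.28 to 0.26) and for the change (-1.36 to 0.59, with 0.06 in between), and Fgf10 for the change (-0.35 to 1.06). The cause was not tested.

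Scaling to the same sum or to the median gene moved the share of higher calls over all genes from 59.4% to 37% or 67.8% over all days, from 64.2% to 51.3% or 66.9% early, from 59% to 43.3% or 70.2% late, from 57.7% to 46.3% or 45.6% in WT and from 51.2% to 39.4% or 46.5% in Tnfr2-/- cultures. The late genotype difference of the median gene was -0.116 after scaling to the same sum and -0.047 as deposited. No called member changed direction under either scaling. With 2 mice per genotype and no read counts, values of a few units, as in Fgf1, Fgf10, Fgfr3 and the IIIb form of Fgfr2, carry unknown counting error.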
